A study of Mus musculus with 9 samples.

Results

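The genes described here encode amino acid transporters of 6 solute carrier families, Slc1, Slc3, Slc7, Slc36, Slc38 and Slc43. Every gene whose symbol is a family name followed by a number was taken, which gave 42 of the 21950 genes measured. RNA was measured in MLE-12, a mouse lung epithelial line from lung tumors of SP-C/TAg transgenic mice, in which the surfactant protein C promoter drives the viral large T antigen in alveolar type 2 cells. All 9 libraries came from this line at passage 17. The control group of 3 libraries received regular culture medium. The wild-type vesicle group of 3 libraries received extracellular vesicles, membrane-bound particles shed by cells, from lavage fluid of wild-type mice injured with bleomycin, a drug that causes lung fibrosis in mice. The deficient vesicle group of 3 libraries received such vesicles from bleomycin-injured mice that are syndecan-1 deficient, syndecan-1 being a proteoglycan with heparan sulfate chains on epithelial cells. The vesicle columns also carry the tag D21, which the labels do not explain, and dose and duration of treatment are not given in the sources used here. Vesicles of uninjured mice were not among the treatments, so an effect of bleomycin injury and an effect of vesicles as such cannot be told apart. Nothing states that the libraries of a group came from separate cultures, donors or vesicle preparations, so p-values measure the spread between these libraries, which may be technical.

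Cells import amino acids through carriers that differ in substrate, in driving force and in the membrane where they sit. Members of Slc38 and Slc1 mostly load neutral amino acids or glutamate with sodium, the cationic carriers of Slc7 bring in arginine and lysine, and the light chains of Slc7 exchange an amino acid inside the cell for another outside and reach the surface only when bound to a heavy chain of Slc3. Some members of Slc36 and Slc38 work at the lysosome, where amino acids freed by protein breakdown are returned to the cytosol and are sensed by the kinase complex mTORC1. Cystine taken up by Slc7a11 supplies the cysteine of glutathione, the main thiol antioxidant of lung epithelium.

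RPKM divides the reads of a gene by its length and by the size of the library, so levels of different genes can be set beside each other. Of the 42 members, 19 had a mean of at least 1 RPKM over the 9 libraries and were tested, 7 were lower but reached 0.1 RPKM in at least 1 library, 11 stayed below 0.1 RPKM, and 5 were listed at 0 in all libraries. The tested members were 7 of 15 in Slc7, 6 of 11 in Slc38, 2 of 7 in Slc1, 2 of 4 in Slc36, both of the 2 in Slc3 and 0 of 3 in Slc43. Together the 42 members summed to between 566 and 570 RPKM in the controls, to between 638 and 662 with wild-type and to between 643 and 669 with deficient vesicles. These sums are on the deposited scale. The median-of-ratios factors used for rescaling below were 0.924 to 0.933 in controls. With wild-type vesicles they were 1.014 to 1.042 and with deficient vesicles 1.057 to 1.075. These factors follow the same group order as the sums, and whether the rise of the sums outlasts rescaling was not tested. In control cells Slc38a6, Slc38a2 and Slc7a5 were the most abundant members, at 122 ± 2.1, 87.2 ± 0.69 and 67.0 ± 0.99 RPKM (SD, n = 3). With both vesicle preparations the order was Slc38a2, Slc7a2, Slc38a6, and the share of Slc7a2 in the summed RPKM of the members was 5.93 to 6.24% in controls against 15.5 to 18.3% over the 6 vesicle libraries.

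**Figure D1:**
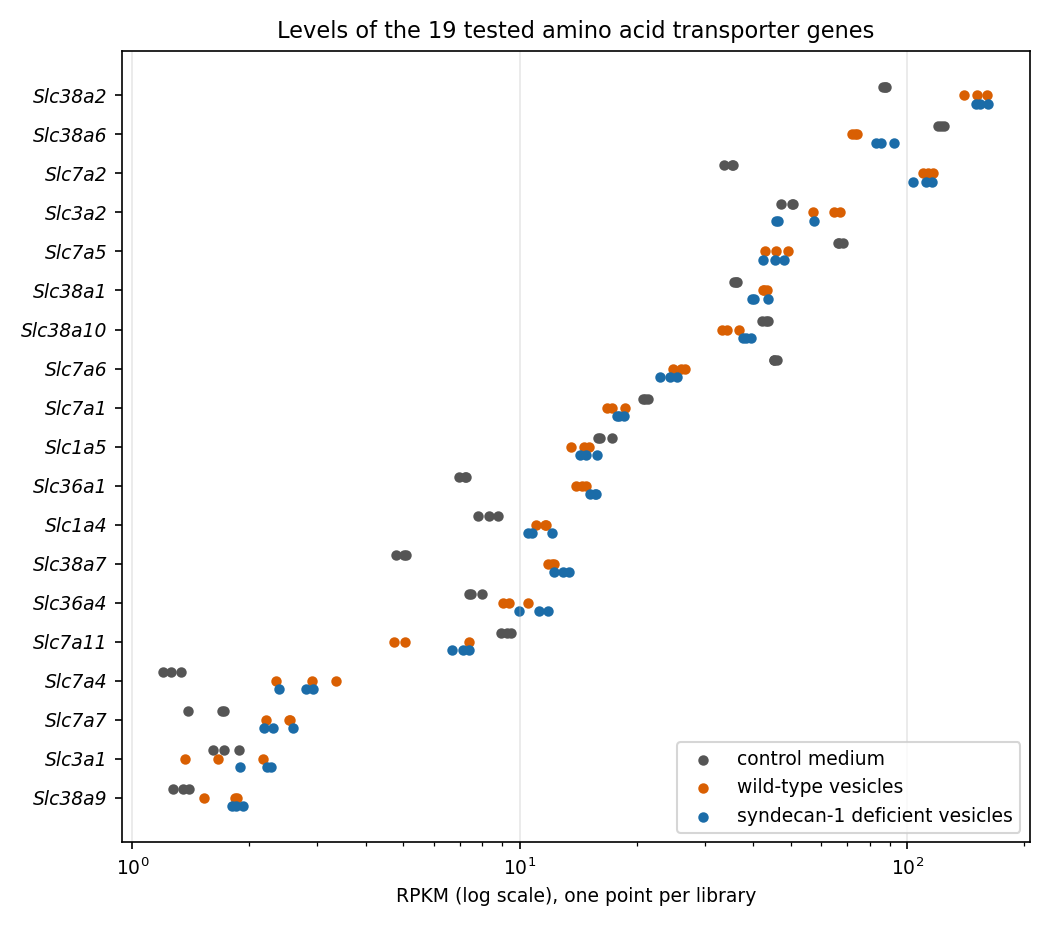
RPKM of the 19 tested members on a log axis, with 1 point per library and the groups in separate colours. Slc7a2, Slc38a7, Slc36a1 and Slc38a2 lie higher in all 6 vesicle libraries than in all 3 controls, and Slc38a6, Slc7a5, Slc7a6 and Slc7a11 lie lower.

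Library totals recovered from the RPKM values lay between 24353257 and 33558660 reads. Of the variance of log2 expression over tested genes, 84.8% lay on a first component between controls and vesicle libraries and 10.2% on a second. On the second component wild-type replicate 3 stood at -2.4, apart from wild-type replicates 1 and 2 at 14.4 and 17.2 and nearer to the deficient libraries at -13.3 to -6.8. The comparison of the vesicle preparations is therefore given with and without it, and the comparisons with control mostly with it only. Of 13 genes checked for the lung epithelial label, Nkx2-1, a lung lineage factor, stood at 24.0 ± 1.3 RPKM in controls, whereas the epithelial surface gene Epcam was listed at 0 in all 9 libraries and Krt18 at 0.228 to 0.872. The summed RPKM of the 13 genes was 419 to 427 in controls, 326 to 353 with wild-type and 316 to 329 with deficient vesicles. Most of the control sum was Krt8, whose mean fell from 337 to 179 and 162.5, and Cdh1 fell from 1.38 to 0.164 and 0.157. Nkx2-1 rose to 34.2 and 37.2, Sftpb from 13.6 to 62.4 and 60.6, and Sftpc from 8.73 to 16.4 and 18.8. Abca3 rose from 15.95 to 21.0 and 21.2 and Sftpa1 from 0.0651 to 1.63 and 1.48, while Foxa2 stood at 21.6, 20.9 and 19.7. Krt7, Napsa and Lamp3 stayed below 1 RPKM. Fibroblast markers (7 genes) summed to 272 to 282 RPKM in controls and to 751 to 917 over the vesicle libraries, most of it Dcn. Col1a1 fell from 79.3 to 46.5 and 45.7 RPKM and Pdgfra rose from 1.12 to 5.065 and 5.43. Lum, Pdgfrb and Col1a2 stayed below 1 RPKM and Col3a1 below 0.01 RPKM. Macrophage markers (10 genes) summed to 1.98 to 2.64 RPKM with 2 of them listed at 0 throughout, neutrophil markers (6 genes) to 0.168 at most and lymphocyte markers (6 genes) to 0.282 at most. Endothelial and erythroid markers (8 genes) summed to 1.20 to 3.18 RPKM in controls, 0.706 to 0.930 with wild-type and 2.67 to 17.5 with deficient vesicles. The part of Dcn, of the epithelial markers and of the erythroid genes in the results on transporters was not tested. In bulk RNA, fewer cells of a kind and less RNA per cell cannot be told apart.

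The first comparisons ask which carriers change when the line is given vesicles of injured lungs, and they share the control libraries. With wild-type vesicles 18 of the 19 tested members changed (limma, adjusted p under 0.05), 11 higher and 7 lower, against 75.1% of all 11125 tested genes called, 45.0% higher and 30.0% lower. With deficient vesicles 16 of 19 changed, 10 higher and 6 lower, against 75.2% of all genes, 48.8% higher and 26.5% lower. Since most genes were called, these counts are read against that background. A change of at least 0.5 on the log2 scale was called for 9 of 19 members (47.4%) with wild-type vesicles against 31.7% of all genes, and for 7 of 19 (36.8%) with deficient vesicles against 31.2%. The groups did not overlap for 18 of 19 members in either comparison, against 78.2% of all genes with wild-type and 81.0% with deficient vesicles. The median log2 fold change of the members was 0.24 with wild-type and 0.19 with deficient vesicles, beside 0.09 and 0.13 over all tested genes. Rescaling the libraries by median-of-ratios factors shifted the median of all genes by -0.12 and -0.18 on the log2 scale, which gave 9 members higher and 7 lower in each comparison, and 46.8% and 45.5% of all called genes higher where the deposited scale gave 60.0% and 64.8%.

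**Figure D2:**
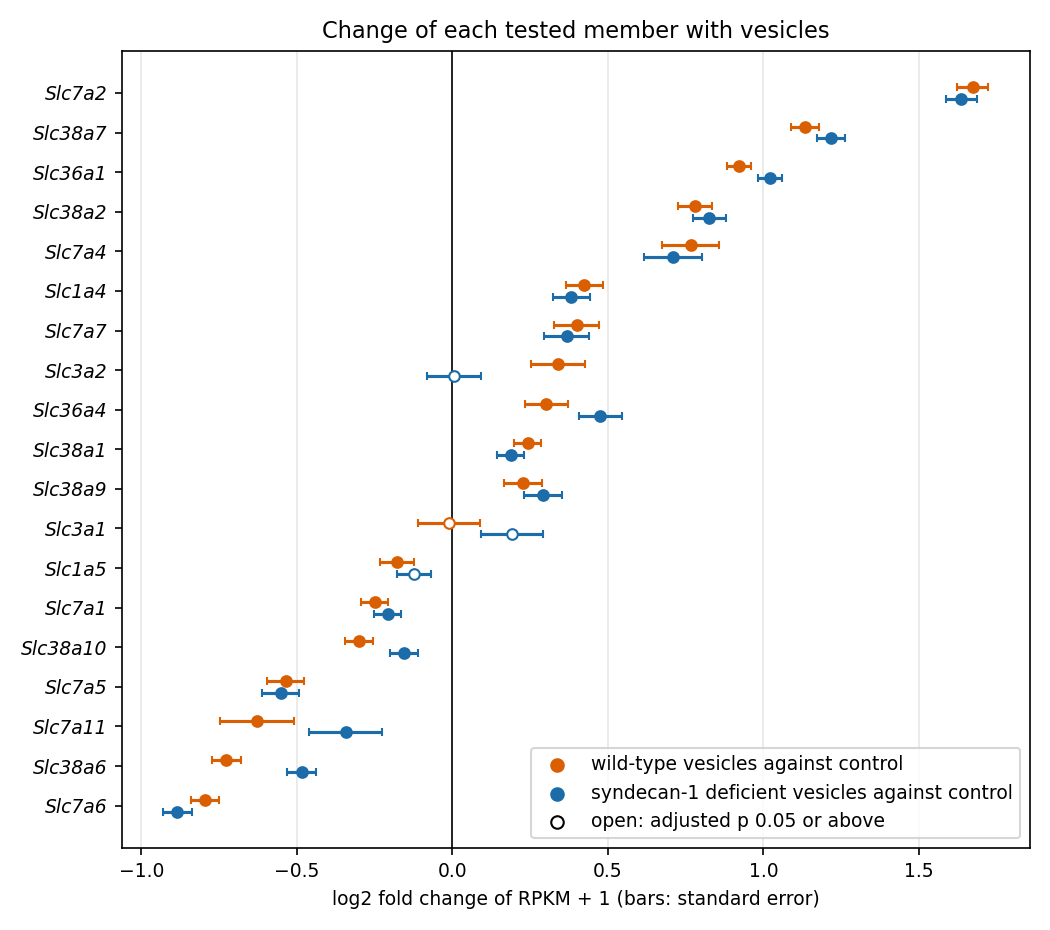
Log2 fold change of RPKM + 1 against control for the 19 tested members, with wild-type vesicles in orange and deficient vesicles in blue. Bars are standard errors, and open points did not pass an adjusted p of 0.05. Slc7a2 stands highest at 1.67 and 1.64, Slc7a6 lowest at -0.80 and -0.88, and Slc3a2 and Slc1a5 passed with wild-type vesicles only, at 0.34 and -0.18.

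Among the cationic carriers of Slc7, which admit arginine, lysine and ornithine, Slc7a2 rose 3.25-fold with wild-type and 3.17-fold with deficient vesicles. Slc7a2 (chr8:40862396-40922308, plus strand, GRCm38) stood at 33.6, 35.3 and 35.5 RPKM in controls, at 109, 117 and 113 with wild-type and at 104, 116 and 112 with deficient vesicles. The vesicle groups overlapped each other, and each lay above every control. The log2 fold changes were 1.67 ± 0.050 (SE, n = 3 a group, adjusted p = 2.94e-09) and 1.64 ± 0.050 (adjusted p = 3.09e-09). Slc7a1, the cationic carrier found in most proliferating cells, went the other way, from 20.8 to 21.4 RPKM in controls to 16.8 to 18.6 with wild-type and 17.8 to 18.5 with deficient vesicles. Its log2 fold changes were -0.25 ± 0.044 and -0.21 ± 0.044 (adjusted p = 0.000404 and 0.00137). In controls Slc7a2 thus stood 1.65 times as high as Slc7a1 on the RPKM scale, and with wild-type vesicles 6.44 times as high and with deficient vesicles 6.09 times as high, as ratios of group means. Of the exonic bases of Slc7a2, 7.0% overlap the noncoding gene Gm26584 on the other strand.

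The relatives of these carriers were far less abundant. Slc7a4, a protein similar in sequence to the cationic carriers, stood at 1.34, 1.20 and 1.26 RPKM in controls, at 2.35, 3.34 and 2.91 with wild-type and at 2.80, 2.93 and 2.38 with deficient vesicles. Every vesicle library lay above every control, with log2 fold changes of 0.77 ± 0.092 and 0.71 ± 0.092 (adjusted p = 2.65e-05 and 4.68e-05). Of its exonic bases 13.3% overlap P2rx6 on the other strand, and since the strand setting of the authors' counting is not given in the sources used here, reads of the 2 genes cannot be told apart there. Slc7a3, the cationic carrier known from brain, fell below the level needed for the test, with 0.269, 0.230 and 0.259 RPKM in controls, 1.00, 0.992 and 1.11 with wild-type and 1.25, 0.963 and 0.933 with deficient vesicles. Those values stand for 21 to 26 reads in a control library and 79 to 116 in a vesicle library. With no filter on low values Slc7a3 was called in both comparisons, at 0.70 ± 0.058 and 0.71 ± 0.058 (adjusted p = 1.46e-05 and 1.34e-05), log2 values that the added 1 makes small beside the RPKM ratio. Slc7a14, another relative of the cationic carriers, ranged from 0.541 to 1.00 RPKM over all libraries. With no filter it was called higher with wild-type vesicles at 0.23 ± 0.080 (adjusted p = 0.0403) and not with deficient vesicles at 0.14 (adjusted p = 0.197). Between the preparations limma did not call Slc7a14 in that fit (adjusted p = 0.502).

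The heterodimeric exchangers consist of a heavy chain, which carries the complex to the membrane, and a light chain, which moves the amino acids. Of the light chains that bind Slc3a2, Slc7a5, Slc7a6 and Slc7a11 fell in both comparisons and Slc7a7 rose in both. Slc7a5 (chr8:121881150-121907694, minus strand), the exchanger of leucine and other large neutral amino acids, stood at 66.2, 66.7 and 68.1 RPKM in controls, at 42.8, 45.8 and 49.3 with wild-type and at 48.2, 42.5 and 45.7 with deficient vesicles. All 6 vesicle libraries lay below all 3 controls, and the log2 fold changes were -0.54 ± 0.059 and -0.55 ± 0.059 (adjusted p = 1.43e-05 and 1.13e-05).

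Slc7a6 (chr8:106168857-106198706, plus strand), which exchanges cationic for neutral amino acids, showed the most negative log2 fold change of the members tested. It stood at 46.2, 45.4 and 45.4 RPKM in controls, at 26.1, 24.9 and 26.7 with wild-type and at 25.5, 22.9 and 24.4 with deficient vesicles. The vesicle means were 0.567 and 0.532 times the control mean, and the log2 fold changes were -0.80 ± 0.046 and -0.88 ± 0.046 (adjusted p = 1.24e-07 and 6.01e-08). Slc7a7, the close relative of Slc7a6 known from kidney, gut and macrophages, was scarce and rose from 1.39 to 1.72 RPKM in controls to 2.21 to 2.56 and 2.19 to 2.59 with vesicles. Its log2 fold changes were 0.40 ± 0.072 and 0.37 ± 0.072 (adjusted p = 0.000521 and 0.000923), and 7.0% of its exonic bases overlap Oxa1l on the other strand.

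Slc7a11 (chr3:49892526-50443614, minus strand), the cystine and glutamate exchanger, stood at 9.25, 8.95 and 9.49 RPKM in controls, at 5.04, 4.72 and 7.39 with wild-type and at 7.40, 6.68 and 7.13 with deficient vesicles. Every vesicle library lay below every control, but wild-type replicate 3 lay among the deficient libraries and well above wild-type replicates 1 and 2. The log2 fold changes were -0.63 ± 0.12 (adjusted p = 0.000656) with wild-type and -0.34 ± 0.12 (adjusted p = 0.0221) with deficient vesicles. The second call was lost without control replicate 1, control replicate 3 or deficient replicate 2 (adjusted p = 0.0522, 0.0621 and 0.0699) and with no filter on low values (adjusted p = 0.0503).

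Slc7a11 is a textbook target of the factor ATF4, which binds the amino acid response element in carrier promoters, so the promoters were searched for its core letters, TGATGNAA, on both strands. RefSeq promoter windows on GRCm38.p6, from 250 bases before to 50 after a gene start, matched 31 of the 42 members and 14 of the 19 tested. The tested members Slc7a2, Slc7a5, Slc38a1, Slc1a5 and Slc7a4 had no window and were not searched. Letters outside a window were not searched in any member. The letters lay in windows of 3 members, all 3 tested, and in 4.0% of all 32851 windows or 4.5% of all 27025 genes. The 3 members are Slc7a11, Slc1a4 and Slc7a7, and they did not move alike, since Slc7a11 fell while Slc1a4 and Slc7a7 rose. Their sequences are shown because they carry this shared element in different places and numbers. Each is printed 5′ to 3′ on the gene's strand from 150 bases before the RefSeq start to the 10th base of the transcript, with TGATGNAA or its reverse complement in capitals.
Slc7a11: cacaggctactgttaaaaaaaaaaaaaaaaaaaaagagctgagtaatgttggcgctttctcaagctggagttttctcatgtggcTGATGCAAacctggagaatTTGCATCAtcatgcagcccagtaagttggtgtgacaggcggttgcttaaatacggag
Slc1a4: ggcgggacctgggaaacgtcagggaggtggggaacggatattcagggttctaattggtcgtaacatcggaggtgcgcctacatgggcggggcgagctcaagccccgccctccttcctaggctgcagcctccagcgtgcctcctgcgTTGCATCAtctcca
Slc7a7: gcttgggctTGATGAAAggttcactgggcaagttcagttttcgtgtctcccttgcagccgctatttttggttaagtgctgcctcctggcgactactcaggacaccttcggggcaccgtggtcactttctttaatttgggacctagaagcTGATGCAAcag
The stretches lie at chr3:50443604-50443763, chr11:20332704-20332863 and chr14:54417935-54418094, all on the minus strand. In Slc7a11 the matches begin 66 and 47 bases before the start and face each other, in Slc1a4 a match begins 4 bases before the start, and in the most upstream of the Slc7a7 starts matches begin 141 bases and 1 base before it. The match nearest that start also lies in the window of a second Slc7a7 start, 243 bases before it, and the windows of 3 other Slc7a7 starts hold no match. The letters TGANNNNGC of the antioxidant response element, tied to NRF2, lay in windows of 20 of 31 members, against 45.0% of genes, and those of the E-box CACGTG in 7 of 31, against 8.1% of genes. Among the 14 tested members with a window, 11 held the former and 2, Slc36a1 and Slc38a7, the latter. A match describes letters only.

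Of the heavy chains, Slc3a2 was called with wild-type vesicles and Slc3a1 in neither comparison. Slc3a2 (chr19:8706882-8723369, minus strand), the heavy chain of the widely expressed exchangers, stood at 50.6, 47.1 and 50.5 RPKM in controls, at 64.8, 66.8 and 57.1 with wild-type and at 57.3, 46.4 and 45.9 with deficient vesicles. The wild-type libraries lay above all controls, whereas the deficient libraries spread across the control range on both sides. Slc3a2 rose with wild-type vesicles, by 0.34 ± 0.087 on the log2 scale (adjusted p = 0.00475), a call lost after rescaling at 0.20 (adjusted p = 0.0695). With deficient vesicles its log2 fold change was 0.0062 (95% interval -0.19 to 0.20, adjusted p = 0.952), and -0.19 after rescaling (adjusted p = 0.083). Slc3a1, the heavy chain of kidney and gut that serves cystine and cationic amino acids, was low at 1.37 to 2.27 RPKM. It did not pass in either comparison with all libraries. Without wild-type replicate 3 it passed with deficient vesicles against control, at 0.19 (limma adjusted p = 0.0293). Of its exonic bases 26.5% overlap Prepl on the other strand, which leaves its reads uncertain. Its partner Slc7a9 was listed at 0 in all libraries.

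Set against Slc3a2, the summed light chains (Slc7a5, Slc7a6, Slc7a7, Slc7a8, Slc7a10, Slc7a11 and Slc7a12) amounted to 2.43, 2.61 and 2.47 RPKM per RPKM of heavy chain in controls. The ratio was 1.18, 1.17 and 1.5 with wild-type and 1.46, 1.60 and 1.73 with deficient vesicles. Every vesicle library lay below every control. The light chains summed to 123 ± 1.0 RPKM in controls, 80.0 ± 4.9 with wild-type and 79.2 ± 4.7 with deficient vesicles (SD, n = 3), and Slc7a5 made up 53.8 to 54.6% of that sum in controls and 56.0 to 58.8% with vesicles. This ratio is one of RNA levels and says nothing of protein.

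**Figure D3:**
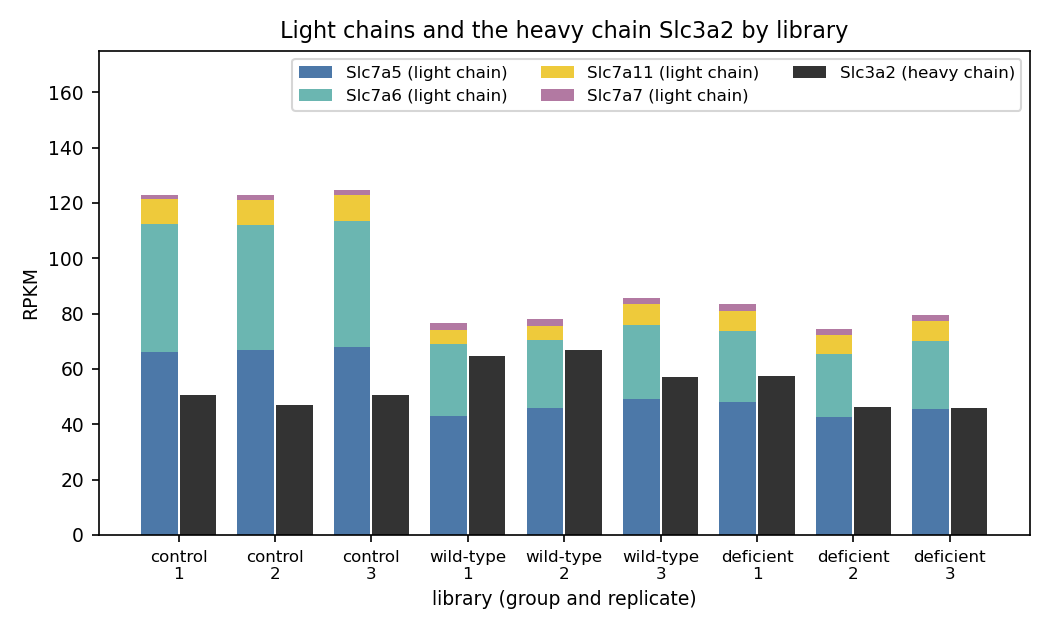
RPKM of the 4 tested light chains, stacked, beside the heavy chain Slc3a2 in each of the 9 libraries, on a linear axis from 0. The stacks stand near 123 in controls and between 74 and 86 with vesicles, while Slc3a2 is highest in wild-type replicates 1 and 2 at 64.8 and 66.8.

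Sodium-coupled carriers of Slc38 contributed between 47.6 and 52.2% of the members' summed RPKM in each library. Slc38a2 (chr15:96687392-96699730, minus strand), the carrier of alanine, glutamine and other small neutral amino acids that cells raise when starved of them, stood at 86.5, 87.3 and 87.9 RPKM in controls, at 151, 140 and 160 with wild-type and at 162, 151 and 154 with deficient vesicles. All vesicle libraries lay above all controls, and the log2 fold changes were 0.78 ± 0.054 and 0.83 ± 0.054 (adjusted p = 4.51e-07 and 2.91e-07). Its neighbour on the same chromosome, Slc38a1 (chr15:96571418-96642913), has overlapping substrates and differed less, at 35.7 to 36.4 RPKM in controls, 42.3 to 43.5 with wild-type and 39.8 to 43.7 with deficient vesicles. Slc38a1 was called higher at 0.24 ± 0.043 and 0.19 ± 0.043 (adjusted p = 0.000451 and 0.0025), but after rescaling neither call held, at 0.10 (adjusted p = 0.054) and -0.0079 (adjusted p = 0.879). The next gene of the cluster, Slc38a4, was low, at 0.161 to 0.222 RPKM in controls and 0.0442 to 0.0932 with vesicles, or 19 to 27 reads against 5 to 11. With no filter on low values it was called lower, at -0.16 ± 0.025 in both comparisons (adjusted p = 0.000594 and 0.000552).

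Slc38a6 (chr12:73286779-73354049, plus strand), a member whose substrates are less settled, was the most abundant carrier in control cells. It stood at 124, 122 and 120 RPKM in controls, at 74.3, 72.0 and 73.3 with wild-type and at 85.3, 92.3 and 83.1 with deficient vesicles. The groups did not overlap in any of the 3 comparisons, and the log2 fold changes against control were -0.73 ± 0.047 and -0.48 ± 0.047 (adjusted p = 2.51e-07 and 4.97e-06). Of its exonic 50-base sequences 35.5% also occur in another annotated gene, so part of its reads cannot be placed with certainty. Slc38a10, a broadly expressed carrier whose known substrates include glutamine and alanine, stood at 42.2, 43.2 and 43.6 RPKM in controls, at 34.3, 33.2 and 36.7 with wild-type and at 37.7, 39.5 and 38.3 with deficient vesicles. The groups were again separate, with log2 fold changes of -0.30 ± 0.045 and -0.16 ± 0.045 against control (adjusted p = 0.00013 and 0.00924). Of the exonic bases of Slc38a10, 5.7% overlap Gm11769 on the other strand.

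Slc38a7 and Slc36a1, both known from the lysosomal membrane, were called higher in both comparisons. Slc38a7 (chr8:95835920-95853539, minus strand), which exports glutamine and asparagine from lysosomes, stood at 4.78, 5.01 and 5.07 RPKM in controls, at 11.8, 12.3 and 12.1 with wild-type and at 12.2, 13.4 and 12.9 with deficient vesicles. The vesicle means were 2.43 and 2.59 times the control mean, with log2 fold changes of 1.13 ± 0.044 and 1.22 ± 0.044 (adjusted p = 1.09e-08 and 7.32e-09). Slc36a1 (chr11:55204350-55236330, plus strand), a proton-coupled carrier of proline, glycine and alanine that sits in lysosomes and at the surface, stood at 7.24, 7.20 and 6.96 RPKM in controls, at 14.0, 14.4 and 14.8 with wild-type and at 15.7, 15.7 and 15.1 with deficient vesicles. Its means were 2.02 and 2.17 times the control mean, with log2 fold changes of 0.92 ± 0.039 and 1.02 ± 0.039 (adjusted p = 1.70e-08 and 9.07e-09). For both genes all vesicle libraries lay above all controls.

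Slc36a4, a proton-independent carrier of tryptophan and proline, stood at 7.41 to 7.96 RPKM in controls, 9.04 to 10.5 with wild-type and 9.96 to 11.8 with deficient vesicles. Its log2 fold changes were 0.30 ± 0.069 and 0.48 ± 0.069 (adjusted p = 0.00239 and 0.000108). Slc38a9, the lysosomal arginine sensor that relays to mTORC1, was the least abundant tested member by mean level and rose from 1.27 to 1.4 RPKM in controls to 1.53 to 1.86 and 1.81 to 1.93 with vesicles. Its log2 fold changes were 0.23 ± 0.061 and 0.29 ± 0.061 (adjusted p = 0.00607 and 0.00131), and both calls held after rescaling, at 0.14 and 0.17 (adjusted p = 0.0488 and 0.0236).

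The neutral amino acid exchangers of Slc1 split. Slc1a4, whose substrates include alanine, serine and cysteine and whose promoter is shown above, rose from 7.77 to 8.75 RPKM in controls to 11.0 to 11.7 with wild-type and 10.5 to 12.1 with deficient vesicles. Its log2 fold changes were 0.42 ± 0.059 and 0.38 ± 0.059 (adjusted p = 8.36e-05 and 0.00018). Slc1a5, the glutamine exchanger that many tumour lines depend on, stood at 15.9 to 17.2 RPKM in controls, 13.5 to 15.1 with wild-type and 14.3 to 15.9 with deficient vesicles. It passed with wild-type vesicles at -0.18 ± 0.055 (adjusted p = 0.0128), a call lost without control replicate 3 or wild-type replicate 2 (adjusted p = 0.0581 and 0.0513). With deficient vesicles it stood at -0.12 ± 0.055 (adjusted p = 0.0603), and at -0.31 after rescaling (adjusted p = 0.000232). The glutamate carriers of the family, known from neurons, glia and retina, were at most 0.554 RPKM. Among them Slc1a2 stood at 0.110 to 0.123 RPKM in controls, 0.179 to 0.269 with wild-type and 0.316 to 0.554 with deficient vesicles, Slc1a3 at 0.0234 to 0.101 over all libraries, Slc1a7 at up to 0.0791 and Slc1a1 at up to 0.0227, and Slc1a6 was listed at 0. With no filter, Slc1a2 was called higher with deficient vesicles at 0.33 ± 0.059 (adjusted p = 0.00141) and not with wild-type vesicles at 0.13 (adjusted p = 0.0951). Slc1a3 was called higher with wild-type vesicles at 0.063 (adjusted p = 0.0445) and not with deficient vesicles at 0.047 (adjusted p = 0.119). Between the preparations limma called neither Slc1a2 nor Slc1a3 in that fit (adjusted p = 0.083 and 0.69).

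The remaining members were below 1 RPKM in every library. In Slc43, Slc43a2, which carries large neutral amino acids without exchange, stood at 0.628 to 0.689 RPKM in controls, 0.505 to 0.539 with wild-type and 0.635 to 0.745 with deficient vesicles, so the wild-type libraries lay below both other groups. With no filter on low values it was called at -0.12 ± 0.032 for wild-type vesicles against control (adjusted p = 0.00927), and at 0.16 ± 0.032 for deficient against wild-type vesicles it was not (adjusted p = 0.0555). Of the exonic bases of Slc43a2, 9.2% overlap Gm45606 on the other strand. Slc43a1 and Slc43a3 reached 0.0133 and 0.0628 RPKM. Slc36a2, a proton-coupled carrier of proline and glycine in kidney, stood at 0.0737 to 0.113 RPKM in controls and 0.151 to 0.237 with vesicles, and Slc36a3 was listed at 0. The highest values of Slc38a3, Slc38a5 and Slc38a11 were 0.0375, 0.0176 and 0.00925 RPKM, and those of Slc7a8, Slc7a10, Slc7a13 and Slc7a15 were 0.0097, 0.0784, 0.0782 and 0.0401. Slc38a8 and Slc7a12 were listed at 0. With no filter, limma called Slc36a2 higher in both comparisons, at 0.13 and 0.14 on the log2 scale (adjusted p = 0.0044 and 0.0025), and Slc7a13 higher with deficient vesicles at 0.085 (adjusted p = 0.0168), with Slc7a13 listed at 0 in all controls and resting on at most 5 reads in a library. Between the preparations limma did not call Slc7a13 in that fit (adjusted p = 0.445).

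**Figure D4:**
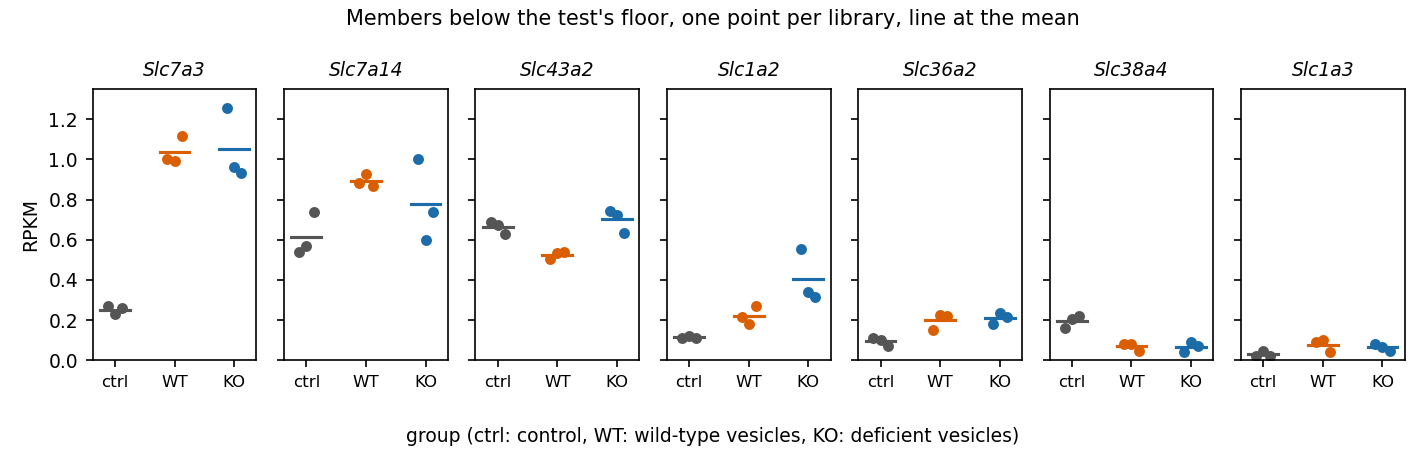
RPKM of the 7 members that reached 0.1 in a library but had a mean below 1, with 1 point per library and a line at each group's mean, on a linear axis from 0. Slc7a3 lies at 0.230 to 0.269 in controls and at 0.933 to 1.25 with vesicles, and Slc43a2 is lowest with wild-type vesicles.

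The comparison of the vesicle preparations asks whether syndecan-1 in the donor mice matters for the recipient cells. Of the 19 tested members 3 passed (15.8%), a share near the 18.4% of all genes called, 12.9% higher and 5.43% lower with deficient vesicles. Slc38a6 and Slc38a10 were higher with deficient than with wild-type vesicles, by 0.24 ± 0.047 and 0.15 ± 0.045 on the log2 scale (adjusted p = 0.0255 and 0.0487), which left both nearer to their control level. Slc3a2 was lower, by -0.33 ± 0.087 (adjusted p = 0.0337), with deficient libraries at 57.3, 46.4 and 45.9 RPKM and wild-type libraries at 64.8, 66.8 and 57.1, so the groups overlapped at 1 library each. Groups did not overlap for 3 of 19 members, Slc38a6, Slc38a10 and Slc36a1, against 32.3% of all genes. Among members 0 differed by 0.5 or more on the log2 scale, against 1.59% of all genes. In limma 6 of 19 members had an unadjusted p under 0.05, beside 4244 of all 11125 genes. With limma voom on recovered reads 3 members were called, beside 2414 of all 11125 genes. After rescaling 1 member was higher and 1 lower, and 41.8% of all called genes were higher where the deposited scale gave 70.4%.

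These 3 calls depended on which libraries entered. Without wild-type replicate 1, wild-type replicate 2 or deficient replicate 2, limma called 0 members and 0 of all genes, with 3, 4 and 4 members and 2851, 2818 and 3132 genes at an unadjusted p under 0.05. Without deficient replicate 3 it called 0 members and 2 of all genes, with 5 members and 3581 genes at an unadjusted p under 0.05. With 1 control replicate left out at a time, which touches only the spread estimate of this comparison, 1 member was called each time, Slc38a6. Over all genes these fits called 733, 909 and 704, without control replicates 1, 2 and 3. Without wild-type replicate 3, the library that stands apart, 7 of 19 members were called, 6 higher and 1 lower, beside 4686 of all 11125 genes. That library was singled out because it lies toward the deficient libraries, so leaving it out favours a larger difference. The calls gained are not read as support for one. The 7 members were Slc7a11 at 0.46 ± 0.052 (adjusted p = 0.00018), Slc3a1 at 0.32 ± 0.080 (adjusted p = 0.0104), Slc38a6 at 0.24, Slc36a4 at 0.23, Slc38a10 at 0.18 and Slc36a1 at 0.12, and Slc3a2 at -0.40 ± 0.083 (adjusted p = 0.00393). With all libraries Slc7a11 stood at 0.29 ± 0.12 (adjusted p = 0.107). Wild-type replicate 3 lay inside the range of the deficient libraries for 12 of 19 members. For 5 of these, Slc36a4, Slc3a1, Slc3a2, Slc7a11 and Slc7a4, wild-type replicates 1 and 2 both lay outside it. The same positions were not counted over all genes, so these counts are not read as a trait of the carriers.

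**Figure D5:**
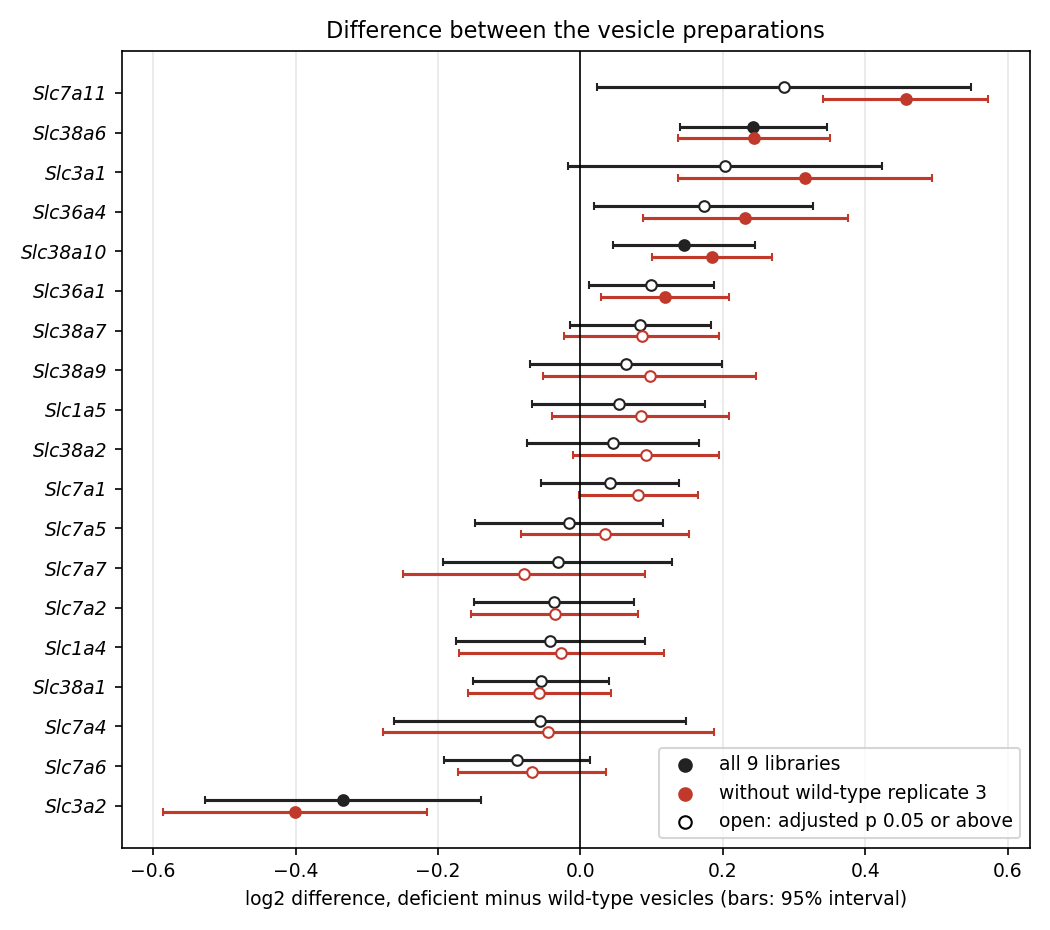
Log2 difference of RPKM + 1, deficient minus wild-type vesicles, for the 19 tested members, from all 9 libraries in black and without wild-type replicate 3 in red. Bars are 95% intervals and filled points passed an adjusted p of 0.05. Slc3a2 lies lowest at -0.33 and -0.40, and Slc7a11 moves from 0.29 to 0.46. Wild-type replicate 3 was singled out for lying toward the deficient libraries, so leaving it out favours a larger difference.

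The interval of the difference between preparations rests on a spread estimated over all 3 groups, controls included. For the carriers that rose most with vesicles this interval was narrow. It ran from -0.15 to 0.07 on the log2 scale for Slc7a2, from -0.07 to 0.17 for Slc38a2, from -0.02 to 0.18 for Slc38a7 and from 0.01 to 0.19 for Slc36a1 (adjusted p = 0.611, 0.559, 0.193 and 0.0947). For the light chains that fell it ran from -0.15 to 0.12 for Slc7a5 and from -0.19 to 0.01 for Slc7a6 (adjusted p = 0.862 and 0.179). Of these, the interval of Slc36a1 excluded 0, although its adjusted p did not pass with all libraries. Intervals of Slc1a4, Slc1a5, Slc38a1, Slc38a9, Slc7a1, Slc7a4 and Slc7a7 included 0, and a p that misses the threshold does not show that the preparations act alike.

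Other genes of amino acid handling were counted in lists, each beside the same background of 45.0% higher and 30.0% lower with wild-type vesicles and 48.8% higher and 26.5% lower with deficient vesicles. That background is on the deposited scale. After rescaling, 3956 of all 11125 tested genes were higher and 4489 lower with wild-type vesicles. With deficient vesicles 3823 were then higher and 4575 lower. Rescaled counts of the lists below are read against these rescaled counts of all genes. Of 18 tested carriers outside the 6 families, 11 were higher and 7 lower with wild-type vesicles, and 9 were higher and 6 lower with deficient vesicles. Among them Ctns, the lysosomal cystine exporter, rose from 5.83 ± 0.12 RPKM to 22.1 ± 0.092 and 21.4 ± 0.54, a log2 change of 1.76 and 1.72 (adjusted p = 4.78e-10 and 5.67e-10). Sfxn1, which carries serine into mitochondria, fell from 38 ± 0.35 to 18.4 ± 0.28 and 18.7 ± 0.55 RPKM. Slc6a9, a glycine carrier, rose from 4.38 ± 0.073 to 10.2 ± 0.34 and 8.01 ± 0.59 RPKM and was lower with deficient than with wild-type vesicles, by -0.32 ± 0.052 on the log2 scale (adjusted p = 0.0255).

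Of 34 tested genes of amino acid sensing at the lysosome by mTORC1, 28 were higher and 4 lower with wild-type vesicles, and 27 were higher and 3 lower with deficient vesicles. Their median log2 fold changes were 0.48 and 0.46, beside 0.09 and 0.13 over all tested genes, and after rescaling 24 were higher and 6 lower, and 21 higher and 6 lower. Rragd, a Rag GTPase, rose from 6.97 ± 0.22 RPKM to 26.6 ± 1.4 and 28.5 ± 2.5. Fnip2, a partner of folliculin, rose from 5.42 ± 0.086 to 18.3 ± 0.45 and 19.5 ± 1.1, and Flcn, folliculin itself, from 12.6 ± 0.73 to 27.0 ± 1.4 and 27.4 ± 0.47. The members Slc38a9, Slc38a7 and Slc36a1 above act at the same membrane.

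Of 24 tested genes of the amino acid response governed by ATF4, 10 were higher and 6 lower with wild-type vesicles, and 10 were higher and 8 lower with deficient vesicles, with medians of 0.09 and 0.04. After rescaling the split was 9 higher and 10 lower, and 10 higher and 12 lower. Ddit3, a stress-induced transcription factor, rose from 9.51 ± 0.10 RPKM to 42.9 ± 2.5 and 30.3 ± 4.8, and was lower with deficient than with wild-type vesicles, by -0.50 ± 0.092 on the log2 scale (adjusted p = 0.0255). Atf5, a relative of ATF4, rose from 21.7 ± 0.95 to 73.3 ± 6.7 and 54.5 ± 2.6 RPKM, with a difference between preparations of -0.42 ± 0.067 (adjusted p = 0.0255), and Stc2, a secreted stress protein, rose from 0.896 ± 0.046 to 2.75 ± 0.16 and 2.53 ± 0.094. In this list 4 of 24 genes were lower with deficient than with wild-type vesicles, against 5.43% of all genes. That count ran from 0 to 6 as single libraries were left out, with 0 called without wild-type replicate 1 or 2 or deficient replicate 2 or 3 and 6 without wild-type replicate 3.

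Enzymes of glutamine, glutamate, branched-chain amino acid and arginine metabolism were divided, with 6 higher and 7 lower of 18 with wild-type and 5 higher and 8 lower with deficient vesicles, and after rescaling 4 higher and 11 lower, and 3 higher and 12 lower. Odc1, which makes putrescine from the arginine product ornithine, fell from 191 ± 4.7 RPKM to 54.4 ± 2.0 and 52.0 ± 3.8, a log2 change of -1.79 and -1.86 (adjusted p = 4.06e-09 and 2.91e-09), while the arginine carrier Slc7a2 rose. Glud1, glutamate dehydrogenase, fell from 43.3 ± 0.53 to 24.7 ± 2.1 and 27.6 ± 0.87 RPKM, and Bckdha, of branched-chain keto acid breakdown, rose from 12.2 ± 0.43 to 22.5 ± 0.59 and 20.0 ± 0.67. Of 11 tested genes of glutathione synthesis, turnover and thiol reduction, 3 were higher and 5 lower with wild-type and 4 higher and 5 lower with deficient vesicles. Values of the synthesis genes on this list, Gclc, Gclm and Gss, are not given here. Txnrd1, thioredoxin reductase, fell from 104 ± 1.7 to 47.7 ± 0.87 and 46.1 ± 1.6 RPKM and Gsr, glutathione reductase, from 52.7 ± 0.73 to 29.0 ± 1.0 and 29.8 ± 0.85, in the same direction as Slc7a11, and Oplah, which recovers glutamate from oxoproline, rose from 2.06 ± 0.12 to 6.44 ± 0.17 and 5.80 ± 0.59.

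Of 10 tested transcription factors known to act on carrier genes, 4 were higher and 3 lower with wild-type and 3 higher and 3 lower with deficient vesicles, and after rescaling 3 were higher and 4 lower, and 3 higher and 6 lower. Nfe2l2, which encodes NRF2, the activator of Slc7a11 under oxidative stress, fell from 65.5 ± 1.2 RPKM to 45.4 ± 1.0 and 43.5 ± 2.6 (adjusted p = 3.83e-06 and 1.69e-06). Myc, which is known to act on Slc7a5 and Slc1a5, fell from 19.1 ± 0.33 to 12.8 ± 1.5 and 9.68 ± 0.33 RPKM (adjusted p = 3.80e-05 and 8.68e-07), and Hif1a rose from 31.7 ± 0.91 to 55.8 ± 0.73 and 57.6 ± 3.4. Whether these levels bear on the carriers was not tested.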

How the data were processed

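RNA of MLE-12 cells was isolated with Trizol and made into libraries with a stranded TruSeq mRNA kit, per the labels' protocols. TopHat2 2.0.7 and the build names GRCm38 and mm10 are listed, without their roles, in the submitters' processing notes. The read counter, its strand setting and the annotation are not given in the sources used here. The authors deposited RPKM per gene in 1 table with 1 column per library, per the file headers, and 0 value columns were left unused. Control columns are headed by the line's name with a number, and elimination put them in the control group.

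Values were tested as log2(RPKM + 1) for the 11125 genes with a mean of at least 1 RPKM, with 1 linear model over the 3 groups in limma (version 3.58.1, R 4.3.3), a variance trend, and Benjamini-Hochberg adjustment per comparison over all tested genes. A gene is called at an adjusted p under 0.05. The added 1 makes the log2 fold change of low genes smaller than the ratio of their RPKM. Errors of RPKM are SDs over 3 libraries, and those of fold changes are limma's moderated standard errors.

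RPKM steps gave whole reads, within 0.01 of a read, for 17279 of 18207 genes above 0 (94.9%), among them all tested genes. Recovered read numbers carry counting error, and the intervals of differences come from limma's spread between libraries. No libraries of a group agreed within sampling noise (chi-square per degree of freedom at least 2.52). The value was 2.52 to 3.5 between controls, 2.55 to 22.48 between wild-type and 6.04 to 11.18 between deficient libraries. The scripts were tested on simulated data. Alternatives were a pseudocount of 0.1, no filter, a mean of at least 5 RPKM, median-of-ratios rescaling, a replicate block, limma voom on recovered reads, and leaving out each library.

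Coordinates, overlaps and shared 50-base sequences come from GENCODE M21 on GRCm38. Tested members are named with their values, and with every library's value where a called log2 fold change reached 0.5 in size. Slc3a2, Slc38a10 and the low members given by library were chosen after their values were seen. Of each list the 3 called genes with the smallest p for wild-type vesicles are named. The members and lists were chosen with earlier results of these data known.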

Additional observations from a re-analysis of the deposited data

Results flagged for a closer look

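By the test of the difference itself, deficient minus wild-type, 3 of the 19 tested members were called (15.8%), a share near the 18.4% of all genes called. The log2 differences were 0.24 for Slc38a6, 0.15 for Slc38a10 and -0.33 for Slc3a2 (limma adjusted p = 0.0255, 0.0487 and 0.0337). Of the 15 alternatives, 5 lost the call of Slc38a6, 11 that of Slc38a10 and 8 that of Slc3a2. The limma adjusted p ran from 0.00284 to 0.107 for Slc38a6, from 0.00366 to 0.174 for Slc38a10 and from 0.00393 to 0.128 for Slc3a2.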

How the results depend on the processing

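Over 15 alternatives, 785 of 843 values for single members kept their direction and their side of the threshold. With the sign kept, 32 lost a call and 9 gained one, and 17 changed sign. Among those that changed sign, Slc38a1 with deficient vesicles against control also lost its call after rescaling (limma adjusted p = 0.879). Of the 32 calls lost with the sign kept, 24 were in the comparison of preparations, where 3 members were called with all libraries. Against control, every count of members called stayed within 1.5 times its value. The numbers did not pair the libraries, since same-numbered libraries correlated between -0.2 and 0.28. A replicate block left 1 member higher with deficient than with wild-type vesicles, and 1681 genes in all where the fit without it called 2042.

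Rescaling gave 4575 genes lower with deficient vesicles than control, and in the comparison of preparations 777 genes higher and 1084 lower, with 1 member higher. It turned Slc38a1 to -0.0079 and Slc3a2 to -0.19 with deficient vesicles against control, and Slc1a5 to -0.0004, Slc38a2 to -0.012 and Slc7a1 to -0.013 between preparations. With no filter 1 gene was higher and 0 lower between preparations, 0 members among them. At an unadjusted p under 0.05 in limma there were then 7 members and 4976 of 18207 genes. The cause was not tested.

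Leaving out 1 library at a time gave 0 to 6 members and 0 to 3194 genes higher, and 0 to 1 members and 0 to 1492 genes lower, with deficient than with wild-type vesicles. The log2 differences ran from -0.0044 to 0.092 for Slc38a2, -0.071 to 0.0068 for Slc7a2, -0.16 to 0.030 for Slc7a4, -0.064 to 0.034 for Slc7a5 and -0.081 to 0.0049 for Slc7a7. Against control they ran from -0.12 to 0.087 for Slc3a1 with wild-type and from -0.096 to 0.061 for Slc3a2 with deficient vesicles. Every fit, with all 9 libraries or with 1 left out, assumes for each gene a spread shared by the 3 groups. The comparison of preparations thus also draws on the spread of the controls. Of 540 results on gene lists, 92 moved by over 1.5 times. The 23 members that were not tested had a mean below 1 RPKM. Their reads ranged up to 159 to 282 a library in Slc7a14, and 5 of them were listed at 0 in all libraries.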
